A study of Mus musculus with 48 samples.

Results

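The comparison described here is the response of RAW264.7 cells, a mouse macrophage line, to IFN-γ in the presence of the PE peptide. PE is a short synthetic peptide that copies a stretch of the HLA-DR β chain as encoded by alleles called protective in the study. The comparison set 3 libraries of cells given PE and IFN-γ (PE+IFNy, columns H, P and X of the deposited table) against 3 libraries of cells given PE alone (columns D, L and T), 6 libraries of 48 in the series. Cells had been cultured for 72 h with the peptide at 100 µg/ml in both groups, and with IFN-γ at 5 ng/ml in the PE+IFNy group only. The same comparison with the peptides LE (from an allele tied to lupus) and SE (from alleles tied to rheumatoid arthritis), at the same dose and time, and with PBS in place of peptide, was used to ask where the response with PE differed. All cells came from 1 transformed line, which shows what this line does and not what primary macrophages do. The study calls its RAW264.7 libraries biological replicates from independent experiments, while the labels number them and do not say which came from separate cultures or from which experiment. The p-values therefore measure the spread between these libraries, which may be technical.

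IFN-γ binds a receptor whose JAK kinases phosphorylate transcription factors of the STAT family, and STAT dimers bind short palindromic promoter elements called GAS. Early targets include transcription factors of the IRF family, which act at a second element, the ISRE, and CIITA, which switches on MHC class II genes. In macrophages this programme is known for antigen presentation, for GTPases that attack intracellular microbes, for nitric oxide production, and for T cell attracting chemokines.

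Values are read counts per gene and, for display, CPM, the count of a gene scaled to the total of its library, which is not corrected for gene length and so is compared only between libraries. The PE libraries held 16.5 M to 23.1 M counts (M for mega) and the PE+IFNy libraries 22.1 M to 24.4 M. Mitochondrially encoded genes took 1.52% to 1.85% of the counts with PE and 0.918% to 0.999% with PE+IFNy, without overlap, and their part in the results was not tested. Macrophage markers were abundant. Of 10 such markers 9 passed the filter on low counts (Mertk did not), and the 10 summed to 10470.3 to 12381 CPM with PE and 7082 to 7318 CPM with PE+IFNy. Markers of other cell types were low in both groups. The 8 B and T cell markers summed to 0.605 to 0.795 CPM with PE and 0.205 to 0.633 CPM with PE+IFNy, with 4 of them at 0 in all 6 libraries, and the 5 epithelial markers summed to at most 0.667 CPM. The 6 fibroblast markers summed to 0.182 to 0.608 CPM with PE and 0.316 to 0.514 CPM with PE+IFNy, and the 1 that could be tested was not called. The 7 neutrophil and mast cell markers summed to 0.389 to 0.788 CPM with PE and 0.542 to 0.5996 CPM with PE+IFNy, with overlap. Mpo, a neutrophil granule enzyme and the 1 that could be tested, was called higher. It was at 0.0936, 0.0865 and 0.303 CPM with PE and 0.452, 0.451 and 0.343 CPM with PE+IFNy. The call was lost without PE replicate 1 or 2 or PE+IFNy replicate 1 or 2 (adjusted p from 0.0820 to 0.157 by edgeR). It was also lost with DESeq2 (adjusted p = 0.0654) and with no filter on low counts (adjusted p = 0.0841 by edgeR). S100a8 of the same list had 9, 7 and 6 counts with PE and 2, 2 and 4 with PE+IFNy. The 5 dendritic cell markers summed to 1.76 to 1.87 CPM with PE and 5.70 to 7.68 CPM with PE+IFNy. Of the 3 that could be tested Clec9a was the 1 called, and Zbtb46 and Xcr1 were not called. Clec9a, a receptor for dead cells known from dendritic cells, was at 0 in the PE libraries. It was at 5.24, 4.595 and 3.68 CPM in the PE+IFNy libraries, at least 29.9-fold higher. The part of these markers in the results was not tested.

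The labels also give replicates 4 to 6 of each group, whose columns carry "HLA" names. In these, the mean log2(CPM + 0.1) of the guanylate-binding and immunity-related GTPases was 5.86 to 6.01 in the libraries labelled PE and 5.48 to 5.58 in those labelled PE+IFNy. In the letter-named libraries it was -0.88 to -0.66 with PE and 4.49 to 4.64 with PE+IFNy. Other HLA-named groups stood apart from their letter-named counterparts too, with 5.87 to 5.95 in those labelled LE, -0.22 to -0.06 in those labelled IFNy and -0.31 to -0.02 in those labelled SE+IFNy. In the deposited table the HLA-named columns are also not in the order of the label numbers. The HLA-named libraries labelled PE, LE, IFNy and SE+IFNy therefore go against their labels, no column was reassigned, and all HLA-named libraries were left out of the comparison. With all 12 libraries as labelled, 271 genes were called in place of 2715.

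IFN-γ changed a large part of the transcriptome of PE-exposed cells. Of 12947 genes tested with edgeR's quasi-likelihood test, 2715 (21%) had a Benjamini-Hochberg adjusted p under 0.05 and a fold change over 1.5, the rule for a called gene used throughout. Of these 1573 (12.1%) were higher and 1142 (8.82%) lower with IFN-γ. The median log2 fold change over all genes tested was 0.01. In 2620 of the called genes all 3 PE+IFNy values lay on 1 side of all 3 PE values. Over all genes tested, 30.03% lay wholly above and 22.9% wholly below. Of the 10 genes that rose furthest among the called genes with a mean of at least 10 CPM and no overlap, 5 were of MHC class II (H2-Aa, H2-Ab1, H2-Eb1, H2-DMb1 and the pseudogene H2-Ea-ps), and the others were Cxcl9, C1qb, Gbp4, Ly6a and Serpina3f, which are described below. The ranking used fitted fold changes, and for Cxcl9 and C1qb, at 0 in every PE library, the data give only a lower bound. By the same rule those that fell furthest included the chemokine receptor Cx3cr1 and the osteoclast protease Ctsk. A change in the RNA of a bulk sample cannot tell fewer cells that express a gene from less RNA per cell.

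**Figure D1:**
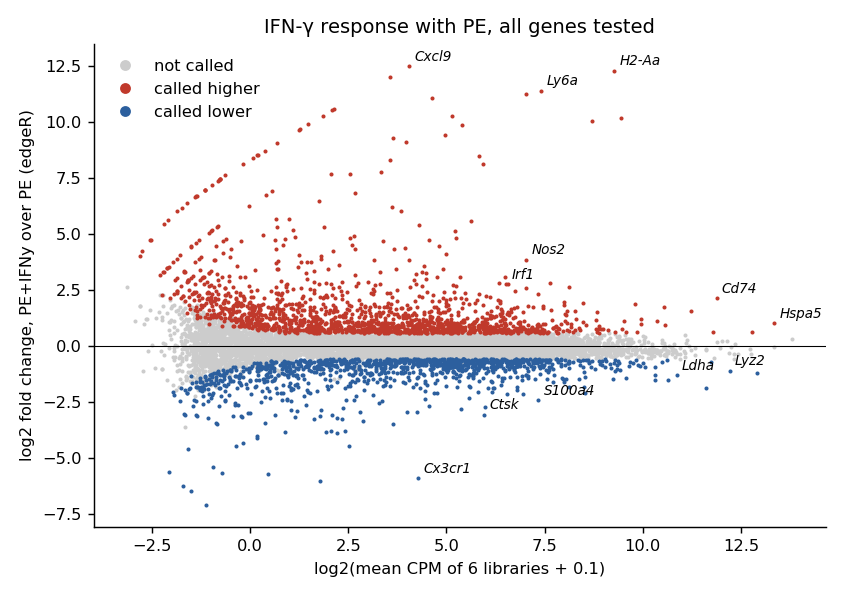
The log2 fold change of PE+IFNy over PE (edgeR, vertical axis) is plotted against log2 of the mean CPM of the 6 libraries plus 0.1 (horizontal axis) for all 12947 genes tested, 1 point each. Red points are the 1573 genes called higher, blue points the 1142 called lower and grey points those not called. The largest changes are upward, with the class II gene H2-Aa and the chemokine Cxcl9 near the top, and Cx3cr1 is the furthest of the named genes below the line at 0. The height of a gene at 0 in every PE library, such as Cxcl9, comes from the fit and is not a measured fold.

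The receptor and JAK-STAT list moved in both directions. Of 14 members tested 7 were called higher and 1 lower, with a median log2 fold change of 0.60. This and the counts of other lists below are read against the 12.1% of all genes called higher and the 8.82% called lower. Ifngr2, the signalling chain of the IFN-γ receptor, measured 146, 131 and 148 CPM in the PE libraries and 87.2, 87.6 and 96.5 CPM in the PE+IFNy libraries. All 3 PE+IFNy values lay below the PE values, and Ifngr2 was the member called lower (log2 fold change -0.70 ± 0.07 (SE), adjusted p = 4.08e-08 by edgeR). Stat2, a factor that acts at the ISRE, measured 48.8, 49.8 and 48.5 CPM in the PE libraries and 137, 139 and 133 CPM in the PE+IFNy libraries. It rose without overlap, at a log2 fold change of 1.42 ± 0.06 (SE) (adjusted p = 1.48e-14 by edgeR). Socs1, a feedback inhibitor of JAK kinases, rose from 1.36, 0.908 and 1.45 to 5.51, 5.29 and 7.75 CPM, a log2 fold change of 2.29 ± 0.25 (SE). The kinase Jak1 had a log2 fold change of 0.28 ± 0.09 (SE) and the phosphatase Ptpn6 one of 0.18 ± 0.07 (SE), and neither was called.

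Among the IRF transcription factors 2 of 8 rose and 1 fell. Irf1, an early target of the pathway, measured 23.3, 21.4 and 23.6 CPM in the PE libraries and 151, 152 and 176 CPM in the PE+IFNy libraries, with means of 22.8 ± 1.22 and 159.7 ± 13.7 CPM (SD, n = 3 each). The groups did not overlap, and the log2 fold change was 2.76 ± 0.08 (SE) with an adjusted p of 1.79e-16 by edgeR. Irf7, a driver of type I interferon genes, rose from 83.5, 80.8 and 86.2 to 155, 135 and 124 CPM (log2 fold change 0.67 ± 0.08 (SE)). Irf4, which directs lymphocyte and alternative macrophage programmes, measured 7.11, 6.83 and 4.73 CPM in the PE libraries and 3.30, 4.72 and 4.11 CPM in the PE+IFNy libraries. It was the member called lower (log2 fold change -0.68 ± 0.22 (SE), adjusted p = 0.0131 by edgeR), and the groups lay next to each other without overlap. The call was lost without PE replicate 1 (adjusted p = 0.0642 by edgeR) or PE+IFNy replicate 1 (adjusted p = 0.0751 by edgeR). Irf8, a macrophage lineage factor, had a log2 fold change of 0.57 ± 0.07 (SE), just short of the fold of 1.5, and passed it at 0.59 both without PE+IFNy replicate 1 and without PE+IFNy replicate 2. Irf5, a factor of inflammatory macrophages, had one of 0.03 ± 0.05 (SE).

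The start sites of several of these genes carry the letters of the elements that the pathway is known to use. Promoter windows came from RefSeq on GRCm38.p6, and the 250 bases before each start were searched on both strands for the GAS letters TTCNNNGAA and the ISRE core, which is GAAA repeated after any 2 bases. Of 127 named genes with a window 25 held a match. Among these were Bst2, Myd88 and Ebp, which were not called, and Tnfrsf9, which fell. Cxcl9, H2-Aa and Tap1 rose and held none. From the signalling, GTPase, antiviral and Fc receptor groups 7 are shown here, each as a stretch around its match on the gene's strand, with the match in capitals.
Irf1, GAS, chr11:53769894-53769962, plus strand: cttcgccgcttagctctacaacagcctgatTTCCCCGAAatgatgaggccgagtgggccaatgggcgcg
Irf8, 2 GAS, chr8:120736157-120736243, plus strand: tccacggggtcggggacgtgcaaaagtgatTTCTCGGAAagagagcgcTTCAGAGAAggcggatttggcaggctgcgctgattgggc
Fcgr1, GAS, chr3:96294040-96294108, minus strand: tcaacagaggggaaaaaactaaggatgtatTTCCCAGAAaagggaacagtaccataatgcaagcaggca
Socs1, 2 ISRE cores that overlap, chr16:10785574-10785649, minus strand: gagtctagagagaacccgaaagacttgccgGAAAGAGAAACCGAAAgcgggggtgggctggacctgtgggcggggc
Stat2, ISRE core, chr10:128270248-128270315, plus strand: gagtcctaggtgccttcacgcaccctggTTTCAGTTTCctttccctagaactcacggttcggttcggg
Ifit3, 2 ISRE cores, chr19:34583343-34583446, plus strand: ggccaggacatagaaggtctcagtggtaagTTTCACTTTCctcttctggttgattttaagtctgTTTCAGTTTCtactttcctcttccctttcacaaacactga
Tgtp2, GAS and ISRE core, chr11:49064243-49064323, minus strand: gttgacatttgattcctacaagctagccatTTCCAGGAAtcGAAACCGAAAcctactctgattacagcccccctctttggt

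An ISRE core was present in 2.98% and GAS letters in 7.02% of all 32851 windows in the table. Windows were found for 9353 of the genes tested. Among the windows of genes called higher, 7.39% held an ISRE core and 7.11% GAS letters, against 2.26% and 5.81% in genes not called and 2.3% and 4.78% in genes called lower. In the 116 windows of genes over 8-fold higher the shares were 23.3% and 12.1%. Of 700 windows with GAS letters and 342 with an ISRE core among the genes tested, 41 held both, and in 10 of these a GAS match overlapped an ISRE match. These shares describe letters in a window and not sites of binding.

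The GTPases of cell-autonomous immunity rose together. All 11 guanylate-binding proteins tested were called higher, with a median log2 fold change of 6.85, and 4.95 when genes at 0 in every PE library are set to the lower bound that 3 counts per library allow. All 9 immunity-related GTPases (IRG) tested were called higher too, with medians of 7.69 and 5.55. Gbp4 had 0, 0 and 5 counts in the PE libraries and 1948, 2109 and 1847 counts in the PE+IFNy libraries. Gbp2b, known as GBP1 in the mouse, rose from 0.561, 0.1297 and 0.182 to 117, 116 and 106 CPM, a log2 fold change of 8.51 ± 0.21 (SE). Iigp1, an IRG that disrupts parasite vacuoles, rose from 0.187, 0 and 0.0606 to 59.0, 64.7 and 61.7 CPM. These members were near 0 with PE alone, but not all members of the families were. With PE alone the guanylate-binding proteins summed to 20.9 to 31.2 CPM and the IRG to 61.8 to 78.3 CPM. Irgm1 had 1144, 1185 and 710 counts there and Gbp8 544, 649 and 305, both chosen after their values were seen. Gbp10, Gbp11, Tgtp1 and Gm4951 had no count in any PE library and were at least 15.8, 30.9, 46.8 and 56.9-fold higher with IFN-γ. For Tgtp2, whose promoter is shown above, the ratio of counts was 636 (95% counting interval 217 to 3088). Members of both families have near-identical copies (Tgtp1 and Tgtp2 for example), and since unique reads alone were counted, the level of a single copy is uncertain.

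**Figure D2:**
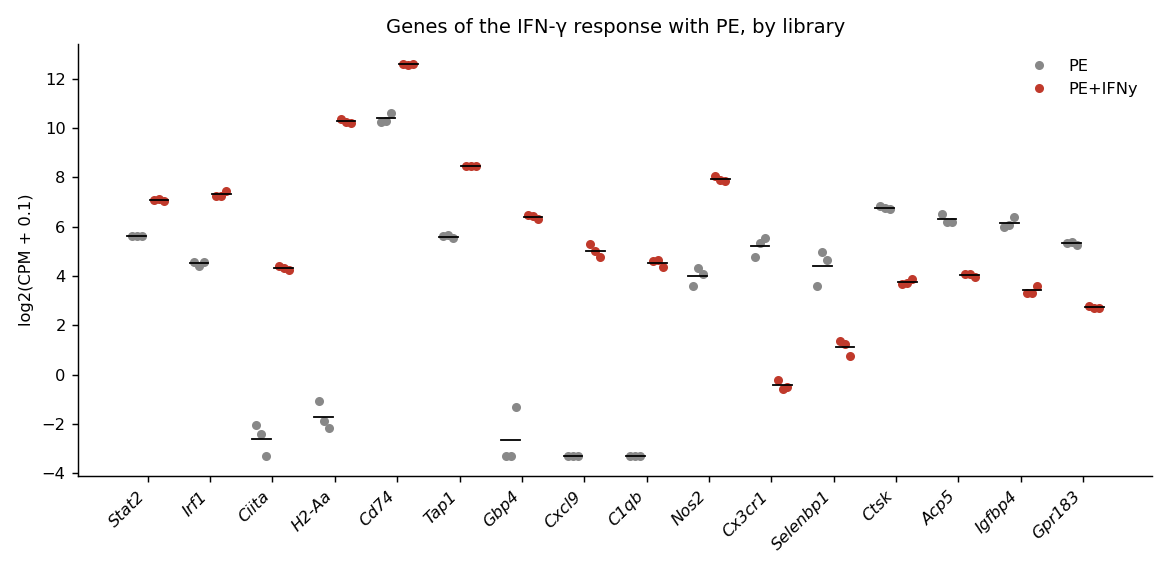
The level of 16 genes is shown as log2(CPM + 0.1) on the vertical axis, with 1 point per library (grey for the 3 PE and red for the 3 PE+IFNy libraries) and a black bar at the mean of the logs of each group. In the first 10 genes the red points lie above the grey ones and in the last 6 below, and the groups overlap in none of the 16. Genes at 0 with PE, such as Cxcl9 and C1qb, sit at the lower limit that the added 0.1 sets.

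Antigen presentation genes rose in both classes. Of 13 class II genes and their regulators 10 were called higher and none lower, with a median log2 fold change of 5.42. Ciita, the class II transactivator, had 3, 2 and 0 counts with PE and 464, 489 and 437 counts with PE+IFNy, a ratio of 243 (95% counting interval 104 to 749). H2-Aa, the class II α chain of H2-A (chromosome 17, 34282744 to 34287823 on GRCm38), had 8, 4 and 2 counts with PE and 29146, 29305 and 27708 with PE+IFNy. It went from near absence to 1317, 1202 and 1187 CPM, a log2 fold change of 12.31 ± 0.20 (SE). Its β chain H2-Ab1 rose from 0.889, 0.649 and 0.727 to 889, 825 and 779 CPM. H2-Eb1, the H2-E β chain, rose from 1.22, 0.735 and 1.64 to 1497, 1398 and 1314 CPM (log2 fold change 10.20 ± 0.14 (SE), adjusted p = 4.42e-22 by edgeR). The locus annotated as the pseudogene H2-Ea-ps, which in some mouse strains encodes the H2-E α chain, rose from 0.0468, 0.173 and 0.0606 to 289, 253 and 239 CPM. Each of these class II genes was close to 0 CPM with PE and well read with IFN-γ. H2-DMb1, a chain of the peptide-exchange factor H2-DM, had a ratio of 1431 (95% counting interval 489 to 6941). Cd74, the invariant chain, which was chosen after its values were seen, was already abundant at 1229, 1247 and 1571 CPM and rose to 6229.9, 6006 and 6264 CPM (log2 fold change 2.14 ± 0.10 (SE)). The class II promoter factors Rfx5 and Rfxap, at log2 fold changes of 0.36 and -0.32, were not called.

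In the class I list 14 of 15 members were called higher, with a median log2 fold change of 1.69. Tap1, which carries peptides into the endoplasmic reticulum, measured 48.6, 50.5 and 46.2 CPM in the PE libraries and 357, 348 and 352 CPM in the PE+IFNy libraries. Its groups lay far apart, at a log2 fold change of 2.81 ± 0.06 (SE) (adjusted p = 1.20e-18 by edgeR). Psmb9, an immunoproteasome subunit, rose from 23.6, 22.3 and 25.1 to 169, 167 and 163 CPM. Nlrc5, the transactivator of class I genes, and H2-T23, a non-classical class I gene, had log2 fold changes of 1.92 ± 0.10 (SE) and 1.91 ± 0.08 (SE). The member that was not called was H2-M3, which presents formylated peptides, at 0.50 ± 0.07 (SE).

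Of 14 chemokines tested 13 were called higher and 1 lower, with a median log2 fold change of 2.22 (1.81 with bounds). Cxcl9, a ligand of CXCR3, a chemokine receptor of T cells (chromosome 5, 92321347 to 92328079 on GRCm38), had no count in any PE library and 860, 795 and 635 counts in the PE+IFNy libraries, at least 218-fold higher. Cxcl10 and Cxcl11, which bind the same receptor, reached 4.79, 4.31 and 4.03 CPM and 3.53, 3.69 and 4.63 CPM with IFN-γ. All 3 CXCR3 ligands were thus near 0 with PE alone, and Cxcl9 was the most read of them with IFN-γ. The monocyte attractants Ccl12 and Ccl8 stayed low at 2.71, 2.91 and 3.26 CPM and 0.136, 0.328 and 0.257 CPM. Ccl8 had no count with PE and was at least 1.60-fold higher. Ccl2, the main monocyte attractant, rose from 11.7, 15.8 and 11.5 to 48.0, 54.8 and 48.8 CPM. Ccl9, a chemokine known from osteoclasts, was the member called lower, from 313, 331 and 287 to 187, 178 and 153 CPM. Cxcl10, Ccl2 and Ccl9 were chosen after their values were seen.

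Chemoattractant receptors were split, with 5 of 11 called higher and 2 lower. Fpr2, a formyl peptide receptor, had no count with PE and was at least 13.8-fold higher with PE+IFNy. Cx3cr1, the fractalkine receptor, measured 27.5, 40.1 and 46.5 CPM in the PE libraries and 0.768, 0.574 and 0.5996 CPM in the PE+IFNy libraries, with means of 38.1 ± 9.69 and 0.647 ± 0.105 CPM (SD, n = 3 each). No gene with a mean of at least 10 CPM fell further among the called genes whose groups did not overlap, and its log2 fold change was -5.92 ± 0.36 (SE) (adjusted p = 1.93e-11 by edgeR). Gpr183, a receptor for oxysterols, fell from 40.5, 41.9 and 38.3 to 6.82, 6.32 and 6.47 CPM, a log2 fold change of -2.67 ± 0.08 (SE). The complement receptor C5ar1, at a log2 fold change of 0.52, was not called.

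Complement and Fc receptor genes mostly rose, with 9 of 14 called higher and 1 lower. C1qb, a chain of the first complement component, had no count in any PE library and 24.2, 25.0 and 20.6 CPM with PE+IFNy, at least 155-fold higher. Its partner chains rose as well, C1qa by at least 35.8-fold and C1qc by a ratio of 759.8 (95% counting interval 210.0 to 6279). Cfb, a factor of the alternative complement pathway, was at least 5.39-fold higher. Fcgr1, the high-affinity IgG receptor whose promoter is shown above, measured 143, 144 and 107 CPM in the PE libraries and 396, 405 and 412 CPM in the PE+IFNy libraries. Its log2 fold change of 1.57 ± 0.10 (SE) came from a base that was already well read with PE alone. Ly6a, known as Sca-1, had 3, 3 and 1 counts with PE and a ratio of 2959.7 (95% counting interval 1436 to 7362). Serpina3f, a serine protease inhibitor with close paralogs and so an uncertain count, had 1 count over the PE libraries and a ratio of 2993 (95% counting interval 537 to 118255).

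Costimulatory and cytokine genes mostly rose or were not called. Of 11 costimulatory and checkpoint genes 7 were called higher and 1 lower. Cd86, a ligand of CD28, rose from 3.84, 3.80 and 2.30 to 63.4, 61.3 and 56.6 CPM (log2 fold change 4.11 ± 0.12 (SE)). Cd40 rose from 15.5, 15.9 and 12.8 to 67.3, 67.5 and 69.1 CPM. Cd274, which encodes the inhibitory ligand PD-L1, rose from 18.3, 19.5 and 17.6 to 95.1, 100.2 and 92.5 CPM. Costimulatory molecules and 1 inhibitory ligand thus rose side by side, each without overlap. The activation marker Cd69 had a ratio of 34.5 (95% counting interval 13.2 to 128), while Icam1, an adhesion molecule, had a log2 fold change of -0.36 ± 0.08 (SE) and Vsir, a checkpoint ligand, one of -0.30 ± 0.07 (SE), and neither was called. Of 10 cytokines 6 were called higher and none lower. Csf1, the macrophage growth factor, rose from 4.49, 5.02 and 5.39 to 58.6, 52.4 and 55.1 CPM (log2 fold change 3.43 ± 0.12 (SE), adjusted p = 1.74e-15 by edgeR). Il6 and Il27 had log2 fold changes of 4.52 ± 0.47 (SE) and 2.88 ± 0.32 (SE). Il1b was called higher at a level near 0 CPM, with a ratio of 9.61 (95% counting interval 2.36 to 84.3), and lost the call without PE replicate 1 (adjusted p = 0.0588 by edgeR) or PE+IFNy replicate 1 (adjusted p = 0.0758 by edgeR). Tgfb1 was not called, at -0.24 ± 0.08 (SE).

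Among microbicidal effectors 7 of 13 were called higher and 3 lower. Nos2, the inducible nitric oxide synthase, measured 12.1, 19.9 and 16.8 CPM in the PE libraries and 269, 238 and 228 CPM in the PE+IFNy libraries. It rose without overlap by a log2 fold change of 3.86 ± 0.34 (SE) (adjusted p = 7.44e-09 by edgeR). Ass1, which recycles citrulline to arginine, the substrate of that enzyme, rose from 15.4, 16.3 and 17.5 to 77.5, 69.9 and 72.9 CPM. Arg2, an arginase that consumes the same substrate, fell from 1.92, 1.64 and 0.909 to 0.0904, 0.0821 and 0.0428 CPM, a ratio of PE to PE+IFNy counts of 21.5 (95% counting interval 8.90 to 67.8). The arginine transporter Slc7a2 was called higher, but had no count with PE and at most 0.164 CPM with PE+IFNy, so no fold is given, and its call was lost without PE+IFNy replicate 2 (adjusted p = 0.0677 by edgeR). The oxidase subunit Cyba, at a log2 fold change of -0.19, was not called.

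Genes known first from type I interferon also responded. Of 25 tested 13 were called higher and 2 lower, with a median log2 fold change of 0.61. Ifit3, an inhibitor of viral RNA translation whose promoter is shown above, and Mx1, an antiviral GTPase, had log2 fold changes of 2.77 ± 0.19 (SE) and 3.74 ± 0.28 (SE). Rsad2, which makes an antiviral nucleotide, and Oasl2 had 2.75 ± 0.18 (SE) and 2.63 ± 0.13 (SE). Abundant members such as Ifitm3 at 0.16 ± 0.06 (SE) and Bst2 at 0.07 ± 0.08 (SE) were not called. Of 14 genes of inflammasomes and lytic cell death 6 were called higher. Zbp1, a sensor of Z-form nucleic acids, rose from 1.97, 1.56 and 1.33 to 46.7, 45.2 and 43.1 CPM (log2 fold change 4.73 ± 0.17 (SE)). Casp4, Casp1 and the sensor Nlrp3 had log2 fold changes of 1.45, 1.11 and 0.90. The pore-forming Gsdmd and the DNA sensor Aim2, at -0.05 and 0.21, were not called.

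The TLR and NF-κB list was divided, with 4 of 23 called higher and 6 lower and a median log2 fold change of -0.17. Tlr9, the receptor of unmethylated DNA, rose from 6.88, 6.44 and 6.79 to 35.8, 31.7 and 29.3 CPM (log2 fold change 2.22 ± 0.12 (SE)). Nfkbiz, a nuclear co-regulator, rose by 1.76 ± 0.19 (SE). Nfkbia, the inhibitor of NF-κB and itself one of its targets, and the co-receptor Cd14 fell, at -1.12 ± 0.11 (SE) and -0.77 ± 0.08 (SE). Myd88, the adaptor, was not called at -0.27 ± 0.06 (SE).

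**Figure D3:**
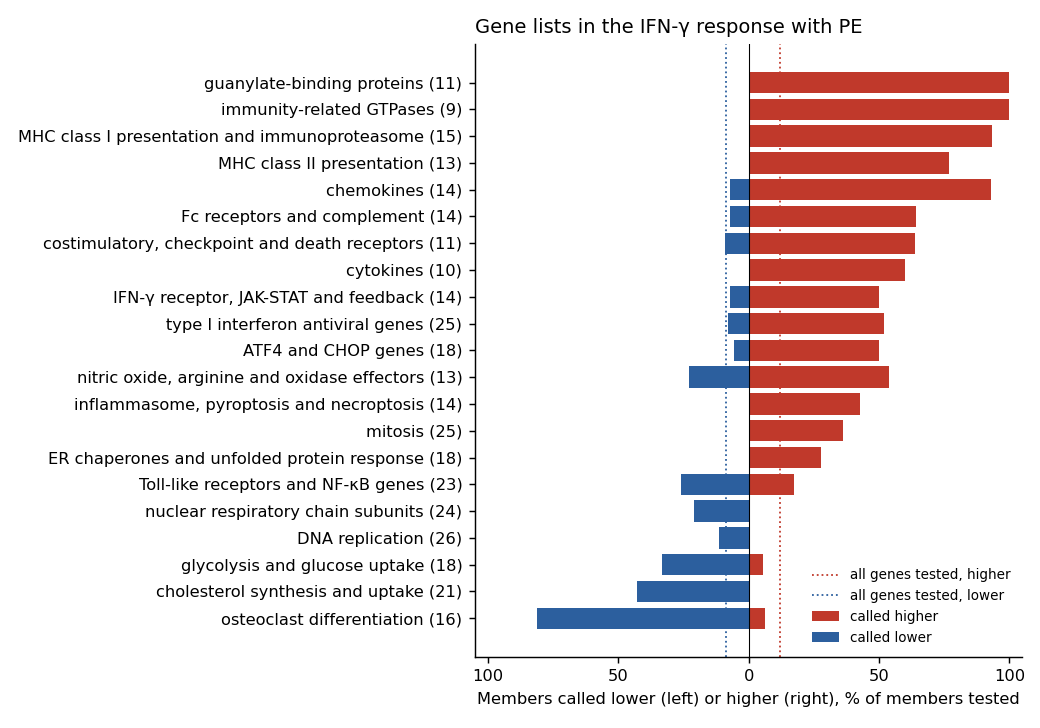
For 21 gene lists the bars show the percent of tested members called higher (red, to the right) and called lower (blue, to the left), with the number tested in brackets. The dotted lines mark the shares over all genes tested, 12.1% higher and 8.82% lower. All GTPases tested were higher, most of the antigen presentation and chemokine genes were higher too, and most of the osteoclast genes were lower.

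Osteoclast genes fell. RAW264.7 cells are known to be able to turn into osteoclasts, and of 16 genes of that programme 13 were called lower and 1 higher, with a median log2 fold change of -1.11. Ctsk, the collagen-degrading cathepsin K, measured 116, 107 and 106 CPM in the PE libraries and 12.7, 13.1 and 14.6 CPM in the PE+IFNy libraries. Its PE+IFNy values were all far under its PE values, at a log2 fold change of -3.07 ± 0.09 (SE) (adjusted p = 1.79e-16 by edgeR). Acp5, the osteoclast acid phosphatase TRAP, fell from 90.1, 73.3 and 73.3 to 16.6, 17.0 and 15.3 CPM (log2 fold change -2.33 ± 0.11 (SE)). Mmp9, a gelatinase, fell from 9.45, 11.2 and 14.3 to 3.25, 2.91 and 2.96 CPM. Slc9b2, a sodium-proton exchanger, fell at a low level, and its ratio of PE to PE+IFNy counts was 17.5 (95% counting interval 8.59 to 41.4). The member called higher was Ocstamp, a membrane protein of cell fusion, at a log2 fold change of 1.32 ± 0.22 (SE), chosen after its values were seen. Tnfrsf11a, which encodes the receptor RANK, and the fusion protein Dcstamp were not called, at 0.06 ± 0.09 (SE) and -0.35 ± 0.08 (SE). In a list of 14 lysosomal proteases that includes Ctsk, 4 were called higher and 2 lower, with a median log2 fold change of -0.32. Ctse, Ctsc and Ctsh rose at log2 fold changes of 1.88, 1.78 and 1.16, and the abundant Ctsb and Ctsd, at -0.38 and -0.31, were not called.

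Other genes that fell furthest have varied roles. Selenbp1, an oxidase of methanethiol, fell from 11.9, 31.4 and 25.2 to 2.44, 2.26 and 1.58 CPM, with a wide spread among the PE libraries. F10, the gene of coagulation factor X, fell from 24.2, 24.6 and 34.9 to 3.80, 3.41 and 3.85 CPM. Igfbp4, a binder of insulin-like growth factors, fell from 62.7, 66.7 and 84.6 to 9.94, 9.93 and 11.9 CPM. None of these groups overlapped. S100a4, a calcium-binding protein of motile cells, fell from 290.1, 244 and 281 to 47.1, 50.2 and 58.6 CPM, and Tnfrsf9, the receptor 4-1BB, from 12.4, 23.3 and 15.8 to 3.30, 2.91 and 3.47 CPM. The neighbouring membrane genes Tmem176a and Tmem176b had log2 fold changes of -2.95 ± 0.13 (SE) and -2.71 ± 0.09 (SE). A list of 27 genes tied to PE in the study had 24 called lower and 3 higher (Csf1, Bglap2 and Trim30d). The study chose that list on these libraries, so it is not independent evidence of its direction. Trim30d had no count with PE and was at least 4.67-fold higher, and Serpinf1, a secreted serpin, fell from 4.02, 8.86 and 12.4 to 0.452, 0.533 and 0.728 CPM.

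Macrophage identity and lipid genes changed in part. Of the 9 macrophage markers tested Fcgr1 and Adgre1, the gene of F4/80, were called higher, and 3 were called lower. Lyz2, the macrophage lysozyme, was among the latter with 6419, 5661 and 7027 CPM in the PE libraries and 3133, 2961 and 3157 CPM in the PE+IFNy libraries. Cd68 and the lineage factor Spi1 were not called, at log2 fold changes of -0.48 ± 0.06 (SE) and -0.25 ± 0.07 (SE). Of 8 scavenger and alternative activation genes 3 were called higher and 1 lower. Cd36, a scavenger receptor for oxidised lipoproteins, rose from 76.1, 93.9 and 57.4 to 484, 541 and 421 CPM, and Axl, a receptor for dying cells, had a log2 fold change of 3.88 ± 0.25 (SE). Fabp4, a fatty acid carrier, fell by a log2 fold change of -2.41 ± 0.39 (SE). Of 12 lipid efflux and LXR genes Lpl, the lipoprotein lipase, rose from 214, 271 and 199.6 to 747, 707 and 585 CPM, and Pltp, a phospholipid transfer protein, fell from 175, 171 and 202 to 76.4, 75.1 and 78.5 CPM. Apoe, an apolipoprotein, was called higher at a low level of 5.65, 4.88 and 5.65 CPM, and lost the call without PE replicate 1 or without PE+IFNy replicate 1 or 3 (adjusted p from 0.0504 to 0.0840 by edgeR).

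Genes of cholesterol synthesis and uptake fell or were not called. Of 21 tested 9 were called lower and none higher, with a median log2 fold change of -0.53. Nsdhl, a sterol dehydrogenase of the pathway, measured 40.4, 37.4 and 40.3 CPM in the PE libraries and 21.4, 23.96 and 24.9 CPM in the PE+IFNy libraries. It fell without overlap at a log2 fold change of -0.80 ± 0.08 (SE) (adjusted p = 4.39e-08 by edgeR). Mvd, which makes isopentenyl diphosphate from mevalonate diphosphate, fell from 146, 138 and 134 to 80.5, 84.1 and 86.9 CPM, a log2 fold change of -0.78 ± 0.06 (SE). Glycolysis had 6 of 18 genes called lower and 1 higher. Ldha, the lactate dehydrogenase A chain, fell from 2205, 2714 and 2925 to 1089, 1078 and 1142 CPM, while the hexokinase Hk3 rose at a log2 fold change of 0.97 ± 0.07 (SE). Of 24 nuclear genes of the respiratory chain 5 were called lower and none higher, led by Ndufb3, a subunit of its first complex, at -0.98 ± 0.08 (SE). The lower mitochondrially encoded share given above moved the same way, and its part was not tested.

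Stress genes rose in part. Of 18 genes of the unfolded protein response 5 were called higher and none lower. Hspa5, the chaperone BiP, measured 7077, 7446 and 5612 CPM in the PE libraries and 14549.6, 14066 and 13282 CPM in the PE+IFNy libraries. It rose without overlap at a log2 fold change of 1.01 ± 0.08 (SE) (adjusted p = 1.11e-09 by edgeR). Herpud1, a factor of protein disposal from the endoplasmic reticulum, and Dnajb9, a co-chaperone of BiP, had log2 fold changes of 0.91 ± 0.08 (SE) and 0.72 ± 0.15 (SE), the latter 0.56 and under the fold of 1.5 without PE replicate 3. The chaperones Calr and Hsp90b1 were not called, at 0.09 ± 0.06 (SE) and 0.22 ± 0.07 (SE). Of 18 genes of the integrated stress response 9 were called higher and 1 lower, with a median of 0.64. Ddit3, which encodes the factor CHOP, rose from 419.8, 423 and 295 to 1414, 1409.7 and 1432 CPM (log2 fold change 1.85 ± 0.10 (SE), adjusted p = 2.66e-12 by edgeR). Ppp1r15a, which encodes the phosphatase subunit GADD34, and the cystine transporter gene Slc7a11 had 1.55 ± 0.09 (SE) and 1.33 ± 0.11 (SE). Atf4, the factor upstream of them, was not called at 0.40 ± 0.06 (SE).

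Lists of the cell cycle differed in their counts. Of 26 replication genes 3 were called lower, a share near that of all genes, and none higher. Mcm6, a subunit of the replicative helicase, fell from 130.2, 97.2 and 144 to 48.3, 46.9 and 45.9 CPM (log2 fold change -1.45 ± 0.13 (SE)), and Mcm7 and Rrm2 had -0.97 ± 0.13 (SE) and -0.74 ± 0.11 (SE). Their fellow members Mcm2 and Pcna had 0.40 ± 0.06 (SE) and -0.49 ± 0.08 (SE) and were not called, so subunits of the same helicase had opposite signs. Of 25 mitosis genes 9 were called higher and none lower. Bub1b, a kinase of the spindle checkpoint, rose from 63.9, 64.1 and 64.0 to 146, 134 and 121 CPM (log2 fold change 1.01 ± 0.07 (SE)). Ccnb1, Cdc20 and Cenpe had 1.000, 0.93 and 0.91, and the proliferation markers Mki67 and Top2a, at -0.05 and 0.26, were not called. Immediate early genes went both ways, with 7 of 18 called higher and 4 lower. Jun fell from 102, 103 and 144 to 32.9, 30.7 and 33.5 CPM (log2 fold change -1.90 ± 0.12 (SE)), whereas Dusp1, a phosphatase of MAP kinases, rose from 5.38, 8.04 and 6.30 to 23.2, 22.4 and 21.0 CPM (log2 fold change 1.70 ± 0.11 (SE)).

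The response with PE was then set against that without peptide, in which no library is shared. Of 13096 genes tested with edgeR over 24 libraries, 0 (0%) differed in response between PE and no peptide by the call rule. At an unadjusted p under 0.05 there were 1073, and DESeq2 called 0 as well. Without peptide 1321 genes were called higher and 1096 lower, of which 1301 and 1083 were also tested in the fit of the peptide libraries. The 1301 had a median log2 fold change of 1.14 without peptide and 1.12 with PE, and 1109 (85.2%) of them were called higher with PE. The 1083 had medians of -0.87 and -0.85, and 790 (72.9%) were called lower with PE. Over 8508 genes with a mean of at least 10 CPM in the 6 PE and PE+IFNy libraries the absolute log2 difference between the responses had a median of 0.11 and a 95th percentile of 0.34, beside a median SE of 0.12. For Irf1 the difference was -0.08 ± 0.13 (SE), for Nos2 0.05 ± 0.52 (SE), for H2-Eb1 -0.50 ± 0.40 (SE) and for Ctsk -0.29 ± 0.14 (SE) on the log2 scale. A miss of the threshold does not show that the responses were alike, and the SEs give how precisely each difference was measured.

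The medians of whole lists did not all stand in the same order. For the guanylate-binding proteins the median log2 fold change was 6.85 with PE, 7.90 without peptide, 7.24 with LE and 7.71 with SE. For MHC class II it was 5.42, 4.53, 5.52 and 5.17. In both, as in glycolysis and the respiratory chain, the median with PE was nearer to that with LE than to that without peptide. Chemokines, cytokines, immediate early and mitosis genes had it nearer to that without peptide. The medians of the guanylate-binding proteins include fitted folds of 2 members at 0 in every PE library. With bounds the median with PE was 4.95, and bounds were not taken for the other responses, so the order in this list is uncertain.

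**Figure D4:**
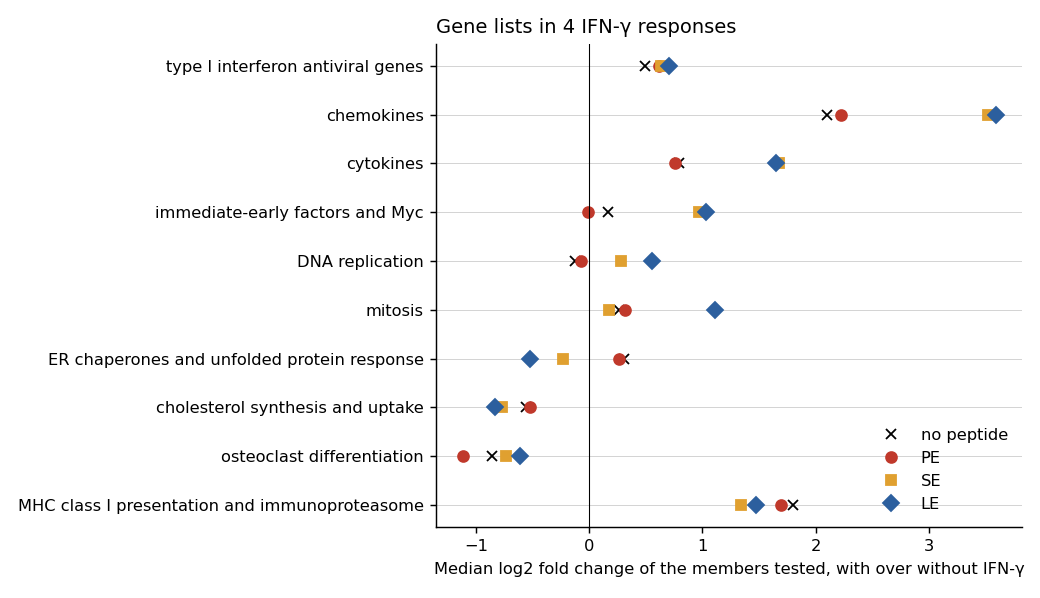
Each row is a gene list, and the horizontal axis is the median log2 fold change of its tested members with over without IFN-γ, for PE (red circles), no peptide (black crosses), SE (yellow squares) and LE (blue diamonds). No error is drawn, since each point is a median over genes. Among the 10 lists drawn, the PE circle lies nearer to the cross than to the diamond in all but the type I interferon genes, and the LE diamonds stand furthest from it in chemokines, cytokines, immediate early genes and mitosis.

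Against the other peptides the response with PE did differ, again with no library shared. In 1771 of 12947 genes (13.7%) the response differed between PE and LE, 813 with the higher log2 fold change under PE and 958 with the lower. Between PE and SE it differed in 623 (4.81%), 249 higher and 374 lower. Of 1768 uniquely named genes that differed from LE, 305 were called in the same direction in both responses, and in 252 of these the change with PE was the smaller. A further 945 were called in the LE response only, 212 in the PE response only, and 32 in opposite directions. From SE, 622 uniquely named genes differed, of which 147 moved the same way in both (94 less with PE), 258 were called with SE only, 118 with PE only and 8 in opposite directions. Over the same 8508 genes the absolute difference had a median of 0.24 from LE and 0.16 from SE. Fold changes rose with transcript length and fell with GC content more under LE (Spearman's rho across genes 0.23 and -0.30, a description over genes that share the libraries) than under PE (0.09 and -0.10). After each library was corrected for its trend on both, 1389 genes differed from LE and 632 from SE.

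Several chemokines rose less with PE than with the other peptides. Of 14 chemokines, 8 differed from LE and 7 from SE, all lower with PE, and the median log2 fold change was 2.22 with PE, 3.59 with LE, 3.52 with SE and 2.10 without peptide. Ccl5, an attractant of T cells and monocytes, measured 14.5, 15.0 and 14.6 CPM in the PE+IFNy libraries, 32.0, 32.2 and 30.4 CPM in the LE+IFNy libraries and 89.7, 79.3 and 74.6 CPM in the SE+IFNy libraries. Its log2 difference in response was -1.13 ± 0.27 (SE) from LE and -1.93 ± 0.26 (SE) from SE. Cxcl16, a scavenger receptor and chemokine, measured 94.5, 85.2 and 81.5 CPM with PE+IFNy, 228, 236 and 268 CPM with LE+IFNy and 234, 208 and 229 CPM with SE+IFNy (differences -1.68 ± 0.14 (SE) and -1.84 ± 0.14 (SE)). Its log2 fold change with PE was 0.63 ± 0.10 (SE), and 0.57, under the fold of 1.5, without PE replicate 2. Il1rn, which encodes the IL-1 receptor antagonist, had log2 fold changes of -0.56 with PE, 1.498 with LE and 1.10 with SE, and the first of these was not called (differences -2.06 ± 0.12 (SE) and -1.66 ± 0.12 (SE)). Irf4 too had opposite signs, at -0.68 with PE, 1.98 with LE and 1.65 with SE (differences -2.66 ± 0.29 (SE) and -2.33 ± 0.30 (SE)). Without peptide Irf4 went from 9.33, 6.16 and 8.63 CPM with PBS to 5.41, 4.21 and 4.62 CPM with IFN-γ. Il1rn went there from 204, 189 and 237 to 155, 102 and 169 CPM. No gene named here was called as differing in response between PE and no peptide.

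Some responses seen with LE and SE were smaller or not seen with PE. Cxcr4, the CXCL12 receptor, measured 8.47, 8.91 and 8.73 CPM in the PE libraries and 8.86, 9.64 and 8.48 CPM in the PE+IFNy libraries, with overlap. Its level was 44.8, 51.9 and 56.9 CPM with LE+IFNy and 29.0, 23.9 and 23.6 CPM with SE+IFNy, and the log2 differences in response were -2.77 ± 0.19 (SE) and -1.65 ± 0.19 (SE). Without peptide Cxcr4 measured 12.2, 9.92 and 10.2 CPM with PBS and 10.04, 8.96 and 11.1 CPM with IFN-γ, with overlap too. Gadd45b, a stress-induced signalling protein, was 38.6, 36.0 and 35.5 CPM with PE+IFNy and had differences of -2.42 ± 0.16 (SE) and -1.80 ± 0.16 (SE). Myc, the growth-promoting transcription factor, measured 2.39, 4.37 and 4.61 CPM in the PE libraries and 12.02, 10.9 and 10.3 CPM in the PE+IFNy libraries. It rose with PE, but by a log2 fold change of 1.51 against 3.94 with LE and 3.08 with SE (differences -2.43 ± 0.34 (SE) and -1.57 ± 0.34 (SE)). Gda, the guanine deaminase, fell with PE from 15.8, 17.9 and 17.4 to 7.01, 6.61 and 5.95 CPM and had log2 fold changes of 0.98 with LE and 0.37 with SE (differences -2.41 ± 0.20 (SE) and -1.81 ± 0.20 (SE)). Serpina3g, a protease inhibitor with near copies, was 23.8, 24.9 and 21.5 CPM with PE+IFNy and 61.7, 67.3 and 80.0 CPM with LE+IFNy. Its response was called lower than with LE, at a fitted log2 difference of -5.27. That value rests on 0, 4 and 0 counts in PE replicates 1, 2 and 3. Without PE replicate 2 the difference was -1.56 and not called. The call was also lost without any 1 of 6 other libraries, with the correction for transcript length and GC content, and with the replicate number in the fit.

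Other responses were higher with PE. Bglap2, an osteocalcin gene with near-identical copies, measured 4.59, 3.72 and 3.82 CPM in the PE libraries and 23.5, 33.5 and 38.5 CPM in the PE+IFNy libraries. With LE+IFNy it was 3.69, 5.35 and 2.93 CPM and with SE+IFNy 8.60, 10.2 and 7.17 CPM, and the differences in response were 2.93 ± 0.35 (SE) (adjusted p = 3.73e-06 by edgeR) and 2.13 ± 0.33 (SE). Cdsn, a protein of skin cell junctions, measured 22.7, 21.9 and 20.9 CPM in the PE libraries and 99.7, 101 and 121 CPM in the PE+IFNy libraries and had differences of 2.20 ± 0.19 (SE) and 1.39 ± 0.18 (SE). Pi16 and Avil, the latter an actin-binding protein of the villin family, were not called with PE, at log2 fold changes of 0.39 ± 0.13 (SE) and 0.32 ± 0.12 (SE). Pi16 had -2.08 with LE and -1.37 with SE (differences 2.46 ± 0.19 (SE) and 1.76 ± 0.19 (SE)), and Avil had differences of 2.18 ± 0.17 (SE) and 1.52 ± 0.17 (SE). Scd2, a fatty acid desaturase that was not called with PE, had differences of 1.49 ± 0.20 (SE) and 1.41 ± 0.20 (SE). In the cholesterol list 9 of 21 genes differed from LE and 4 from SE, all with the higher log2 fold change under PE. The list medians were all negative, at -0.53 with PE, -0.83 with LE, -0.77 with SE and -0.55 without peptide. Cx3cr1 fell further with PE than with SE, by a difference of -1.90 ± 0.58 (SE) (adjusted p = 0.0346 by edgeR). That call was lost without PE replicate 3, without any 1 of the PE+IFNy replicates, without SE replicate 1 or SE+IFNy replicate 1 or 2, and with all 8 groups in the fit (adjusted p from 0.0506 to 0.0889 by edgeR).

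**Figure D5:**
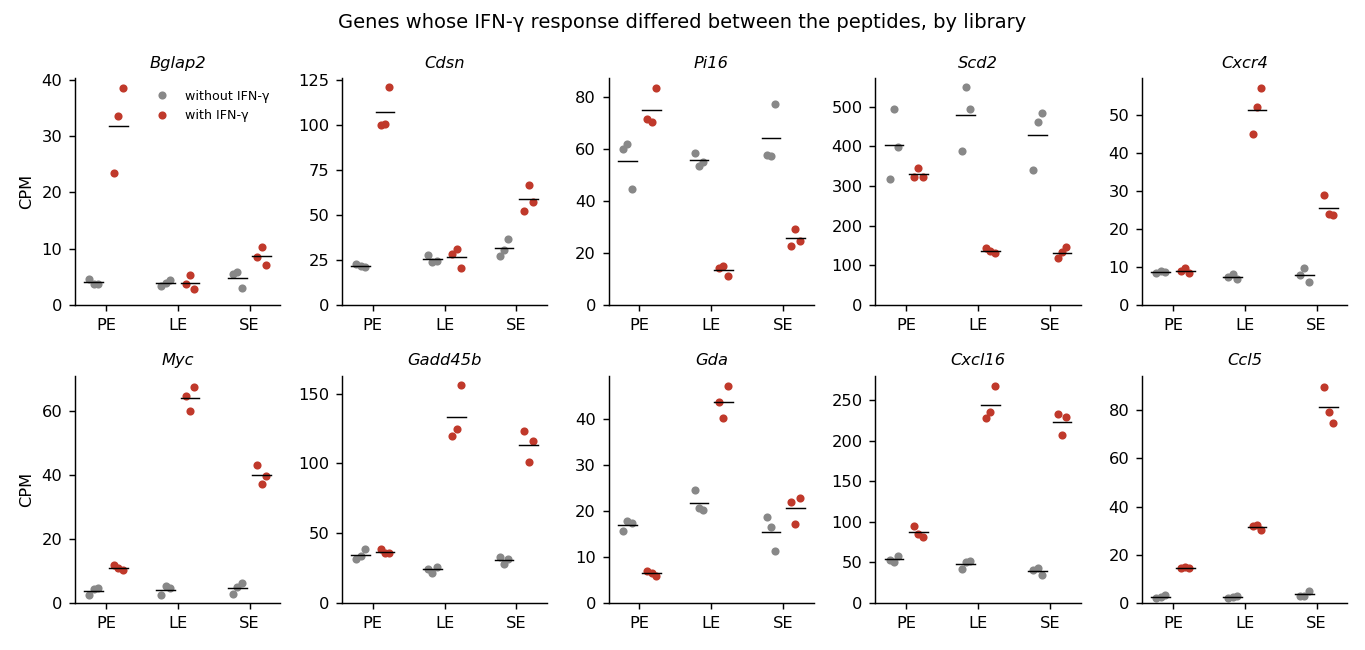
The level of 10 genes in CPM (vertical axes, starting at 0) is shown for PE, LE and SE, with 1 point per library (grey without and red with IFN-γ) and a black bar at each mean of 3. Bglap2 and Cdsn rise most with PE, Cxcr4 and Gadd45b rise with LE and SE but not with PE, and Gda falls with PE and not with LE or SE. The response without peptide is not drawn.

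Many members of the proliferation and unfolded protein lists differed from LE. Of 26 replication genes 21 differed from LE and 4 from SE, all with the lower log2 fold change under PE, and the medians were -0.07 with PE, 0.56 with LE and 0.28 with SE. Of 25 mitosis genes 14 differed from LE, all lower with PE, and 3 from SE, all higher with PE. Mki67 had log2 fold changes of -0.05 with PE and 1.27 with LE (difference -1.32 ± 0.15 (SE)). Of 18 genes of the unfolded protein response 11 differed from LE, all higher with PE, and 9 from SE, 8 of them higher with PE. The medians were 0.27 with PE, -0.52 with LE, -0.24 with SE and 0.31 without peptide. Calr had 0.09 with PE and -0.77 with LE (difference 0.86 ± 0.09 (SE)). Of 18 immediate early genes 7 differed from LE and 6 from SE, all lower with PE, among them Dusp1 (-2.00 ± 0.16 (SE) and -1.69 ± 0.16 (SE)) and Jun (-1.27 ± 0.17 (SE) and -0.94 ± 0.17 (SE)). With the correction for transcript length and GC content, 20 of the 26 replication genes and 11 of the 18 genes of the unfolded protein response still differed from LE. From SE, 3 and 7 of them did.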

How the data were processed

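Poly(A) RNA of RAW264.7 cells was read in stranded single-end libraries. By the study's methods, uniquely mapped reads were counted per gene with featureCounts on GENCODE M12 (GRCm38.p5). The aligner is not given in the sources used here. The authors deposited 1 table of whole-number counts for 49568 genes, without normalization, which was used as deposited. Per the submitters' notes they tested with DESeq2 1.16.1 in R 3.4.1. Among the gene names, 26 look like dates or repeat, and those genes stayed in the fits and are not named.

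Columns were matched to samples by name. Replicates of 1 group differed by more than sampling noise (chi-square per degree of freedom 6.05 to 23.2). edgeR 4.0.16 (quasi-likelihood F test, TMM, filterByExpr, R 4.3.3) was fitted to the 18 letter-named libraries with a peptide, and to all 24 for the difference from no peptide. A gene was called at an adjusted p under 0.05 over all genes tested and a fold over 1.5. Alternatives were DESeq2 1.42.0, its size factors, no filter, other libraries in the fit, a replicate block, a correction for length and GC content, protein-coding genes only and leaving out each library. The test was tried on simulated data.

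A bound against a group at 0 takes 3 counts per library, and ratios of counts carry exact 95% intervals. Bounds and intervals cover counting error only. Genes were named by a rule: up to 10 per direction with the largest change, a mean of at least 10 CPM and no overlap, up to 4 called and 2 abundant uncalled members of each of 34 lists, up to 5 per direction for each difference, and Irf1, Ciita, Nos2 and Cx3cr1. Some genes under the rule are not reported here. The comparison, the lists and the rule were chosen with earlier results of these data known.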

Additional observations from a re-analysis of the deposited data

Results flagged for a closer look

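Differences between the response with PE and those with LE and SE were marked because the difference itself passed the edgeR test, 1771 genes from LE and 623 from SE. As log2 differences in response, the signalling genes lower with PE were Irf4 at -2.66 from LE and -2.33 from SE, Dusp1 at -2.00 from LE and -1.69 from SE, Jun at -1.27 from LE and -0.94 from SE and Myc at -2.43 from LE and -1.57 from SE. Those for secreted and surface proteins were Ccl5 at -1.13 from LE and -1.93 from SE, Cxcl16 at -1.68 from LE and -1.84 from SE, Il1rn at -2.06 from LE and -1.66 from SE and Cxcr4 at -2.77 from LE and -1.65 from SE. Also lower with PE were Gadd45b at -2.42 from LE and -1.80 from SE and Gda at -2.41 from LE and -1.81 from SE. Called lower from LE were Mki67 at -1.32 and Serpina3g at -5.27, and called lower from SE was Cx3cr1 at -1.90. The other difference of each was not called here and was not shown to be absent, and for Serpina3g and Cx3cr1 both the call made and the one missed depended on the fit. Higher with PE were Avil at 2.18 from LE and 1.52 from SE, Bglap2 at 2.93 from LE and 2.13 from SE, Cdsn at 2.20 from LE and 1.39 from SE, Pi16 at 2.46 from LE and 1.76 from SE and Scd2 at 1.49 from LE and 1.41 from SE, and, from LE, Calr at 0.86. In all of these the PE and PE+IFNy libraries entered both differences, so the values from LE and from SE are not independent of each other. None of these genes was called as differing in response between PE and no peptide.

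The HLA-named libraries labelled PE and LE were marked because they lie outside the comparison and carry a signal above that of the letter-named libraries of the same label. The mean log2(CPM + 0.1) of GTPase genes was 6.00, 6.01 and 5.86 in those labelled PE, against -0.88 to -0.66 in the letter-named PE libraries, and 5.93, 5.95 and 5.87 in those labelled LE, against -0.69 to -0.50. In the HLA-named libraries labelled IFNy and SE+IFNy it was -0.22 to -0.06 and -0.31 to -0.02, against 4.59 to 5.09 and 4.66 to 4.78 in the letter-named ones. The deposited table does not hold the HLA-named columns in the order of the label numbers. The reason for these levels was not tested.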

How the results depend on the processing

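Other processing of the letter-named libraries moved the counts by less than 1.5 times, other than for the difference from no peptide. The 2715 genes of the IFN-γ response with PE became 2532 to 2913 when 1 library was left out, 2651 with DESeq2 and 2457 with the PE and PE+IFNy libraries alone. Differences from LE ran from 1462 to 1994 and from SE from 464 to 726 when 1 library was left out. With a correction for transcript length and GC content 1389 genes differed from LE in place of 1771, and 1178 were shared. From no peptide the count was 0 or, without IFNy replicate 2, 1, and 61 with no filter on low counts (50 higher with PE). None of the gene values reversed under these settings, and the calls of 9 named genes were lost under 1 or more of them, namely Apoe, Cx3cr1 (from SE), Cxcl16, Dnajb9, Il1b, Irf4, Mpo, Serpina3g (from LE) and Slc7a2. Calls were gained for 6, namely Irf8, C5ar1 and Il1rn in the response, Calr from SE, Cx3cr1 from LE and Serpina3g from SE. Serpina3g was called lower from SE with DESeq2 (log2 difference -4.30, adjusted p = 0.0181) and with no filter (-5.11, adjusted p = 0.0228 by edgeR). Cx3cr1 was called lower from LE with no filter (-1.20, adjusted p = 3.69e-04 by edgeR). The cause was not tested.

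Same-numbered PE and PE+IFNy libraries had correlations of their deviations of 0.08, 0.16 and 0.20, not all over 0.1, so numbers were not taken as pairs, although each library correlated best with its own number, which is a hint from the data. A block for the replicate number gave 2733 calls in the response, and 1803, 652 and 0 in its differences from LE, SE and no peptide. Under the block Cx3cr1 was called lower from LE (log2 difference -1.24, adjusted p = 0.0131 by edgeR, and 0.0120 with the correction for length and GC content), and Serpina3g was not (adjusted p = 0.0505 by edgeR).

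With the HLA-labelled libraries in place of or added to the others, as labelled, results moved. Since the GTPase levels of the HLA-labelled PE, LE, IFNy and SE+IFNy libraries go against their labels, it is uncertain which conditions the counts and values in this paragraph compare. In the HLA-labelled libraries alone 2140 genes were called in the response, 679 shared, 44.2% of them higher against 57.9%, and 43, 1913 and 2145 differed from LE, SE and no peptide. With both together 271 were called, 46.1% higher, and 0 differed from LE or SE. The HLA-labelled PE and PE+IFNy libraries held 18.3 M to 30.1 M counts (M for mega). Of the 194 gene values, 85 reversed in the HLA-labelled libraries alone and 30 with both together. For IRF genes the log2 fold changes that turned were Irf1 -0.092 and Irf7 -1.08 in the HLA-labelled libraries, and Irf7 -0.32 with both. For GTPases the log2 fold changes that turned were Gbp2b -1.46, Gbp4 -0.93, Gbp10 -0.78, Gbp11 -0.12, Gm4951 -0.0134, Iigp1 -0.24, Tgtp1 -0.35 and Tgtp2 -0.52 in the HLA-labelled libraries, and Gbp2b -0.72, Gbp4 -0.30 and Gbp10 -0.38 with both. For antigen presentation genes the log2 fold changes that turned were H2-DMb1 -0.45, H2-Ea-ps -0.48, H2-T23 -0.19, Nlrc5 -0.0262, Psmb9 -0.29 and Tap1 -0.052 in the HLA-labelled libraries. For chemokines and chemoattractant receptors the log2 fold changes that turned were Ccl2 -1.16, Ccl5 -2.42, Ccl8 -0.63, Ccl12 -0.62, Cxcl9 -1.22, Cxcl10 -2.48, Cxcl11 -0.87, Cxcl16 -1.56 and Fpr2 -1.85 in the HLA-labelled libraries, and Ccl2 -0.45, Ccl8 -0.0275, Cxcl10 -1.29, Cxcl16 -0.64 and Fpr2 -1.41 with both. For complement and surface genes the log2 fold changes that turned were C1qa -1.21, C1qb -0.45, C1qc -0.62, Cfb -0.96, Cd274 -0.996, Cd36 -0.90, Adgre1 -1.12, Axl -0.0438, Clec9a -0.62 and Ocstamp -1.43 in the HLA-labelled libraries, and C1qa -0.76, C1qc -0.14, Cfb -0.30, Cd274 -0.18, Cd36 -0.38, Adgre1 -0.61 and Ocstamp -0.54 with both. For cytokines and effectors the log2 fold changes that turned were Il1b -4.03, Il27 -1.01, Nos2 -1.18, Ass1 -0.30 and Slc7a2 -2.56 in the HLA-labelled libraries, and Il1b -2.83 and Slc7a2 -2.25 with both. For antiviral and cell death genes the log2 fold changes that turned were Ifit3 -0.66, Mx1 -0.12, Rsad2 -2.04, Oasl2 -0.45, Trim30d -0.41, Zbp1 -0.70, Casp1 -0.52, Casp4 -0.12 and Nlrp3 -0.18 in the HLA-labelled libraries, and Rsad2 -1.30 and Casp1 -0.0611 with both. For protease and protease inhibitor genes the log2 fold changes that turned were Ctsc -0.64, Ctse -0.21, Ctsh -0.64, Serpina3f -1.52, Serpina3g -1.30 and Serpinf1 0.39 in the HLA-labelled libraries, and Ctsc -0.17, Serpina3f -0.26 and Serpina3g -0.18 with both. For lipid and energy genes the log2 fold changes that turned were Apoe -0.24, Hk3 -0.16, Ldha 0.10, Lpl -0.40, Mvd 1.39, Ndufb3 0.0509 and Pltp 0.0633 in the HLA-labelled libraries. For stress and signalling genes the log2 fold changes that turned were Dnajb9 -0.00242, Dusp1 -1.95, Myc -2.39, Nfkbiz -0.73, Ppp1r15a -0.21 and Slc7a11 -0.52 in the HLA-labelled libraries, and Dusp1 -0.89, Myc -0.79, Nfkbiz -0.44 and Slc7a11 -0.22 with both. For mitosis genes the log2 fold changes that turned were Bub1b -0.51, Ccnb1 -1.04, Cdc20 -0.60 and Cenpe -1.08 in the HLA-labelled libraries, and Ccnb1 -0.32 and Cenpe -0.64 with both. Of the differences from LE, Bglap2 -0.89, Ccl5 0.0472, Cxcl16 0.61, Cxcr4 0.53, Dusp1 0.58, Gadd45b 0.89, Gda 0.33, Il1rn 0.41, Irf4 0.61, Jun 0.87, Myc 0.10, Scd2 -0.44 and Serpina3g 1.05 turned in the HLA-labelled libraries, and Ccl5 0.19 with both.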
